A study of Mus musculus with 48 samples.

Results

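The BCL-2 family decides whether a cell's mitochondria release the proteins that start its death, and 10 of its genes were followed here through RNA and open-chromatin measurements of a mouse study of invariant natural killer T (iNKT) cells. The genes were Bcl2, Bcl2l1, Mcl1, Bax, Bak1, Bcl2l11, Bbc3, Pmaip1, Bid and Bad, listed by name as well known survival and death genes of the family. All 10 were found by gene ID in the 52636 IDs of the iNKT cell table and in the 35661 IDs of the donor T cell table, and all 10 passed the low-count filter in each fit. Of 54524 open-chromatin regions, 50 lay in or within 2000 bp of these genes.

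The family has 3 branches. BCL-2, BCL-xL (gene Bcl2l1) and MCL-1 hold cells alive by binding the other members. BAX and BAK (gene Bak1) form the pores in the outer mitochondrial membrane through which cytochrome c escapes. The BH3-only proteins BIM (gene Bcl2l11), PUMA (gene Bbc3), NOXA (gene Pmaip1), BID and BAD sense stress, cytokine loss or death-receptor signals and either block the survival proteins or switch on BAX and BAK. In T cells, BCL-2 and MCL-1 are known for keeping resting cells alive, BIM and PUMA for removing activated cells after a response, and BCL-xL for rising on activation.

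All cells came from FVB/N mice. The iNKT cells, T lymphocytes with a nearly invariant receptor for glycolipids shown on CD1d, were sorted from thymus as the sublineages iNKT17, iNKT2 and iNKT1, with 2 RNA and 2 open-chromatin (ATAC-seq) libraries each. Thymic iNKT cells not split into sublineages (mice of 8 weeks) were profiled as single cells in 2 samples. The donor cells were conventional CD8 or CD4 T cells from spleen and peripheral lymph nodes, collected before transplant (day 0) or 7 days after transfer into major-mismatched Balb/C hosts, a model of graft-versus-host disease. On day 7 the hosts had received iNKT17, iNKT2 or iNKT1 cells or no iNKT cells (untreated), with 3 libraries per group and cell type. Of 48 labelled samples, 44 were used; 4 iNKT1 libraries sorted by CD4 were not analysed here.

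Libraries held 26811373 to 33688697 counts for iNKT RNA, 25323879 to 37055182 for donor T cells and 13299586 to 42964216 for ATAC-seq, the deepest being an iNKT1 library. Labels matched the defining genes: Cd8a stood at 357 to 975 CPM (counts per 1000000, scaled by the TMM method) in CD8 libraries, against 0.536 to 7.46 CPM in CD4 libraries. Zbtb16, the gene of PLZF, had 544 and 589 CPM in iNKT17 and 739.9 and 522 CPM in iNKT2 libraries, against 96.0 and 46.7 CPM in iNKT1 libraries, which sets iNKT1 cells apart from the other sublineages. No label says that libraries of a group came from separate animals, so p-values measure a spread that may be technical. In bulk libraries, fewer cells of a type and less RNA per cell cannot be told apart.

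In thymic iNKT cells, Bcl2 RNA was far lower in iNKT2 and iNKT17 cells than in iNKT1 cells, and no other member of the family passed the test. Bcl2, the survival gene, had 1501 and 487 counts in iNKT17 libraries and 239 and 445 in iNKT2 libraries, against 15366 and 5472 in iNKT1 libraries (48.3 and 18.9 CPM, 8.09 and 16.1 CPM, and 503 and 164 CPM in the same order). Every iNKT17 and iNKT2 library lay below both iNKT1 libraries. The log2 fold change was -4.78 ± 0.76 (SE) in iNKT2 over iNKT1 cells, with an adjusted p of 0.0136 by edgeR's quasi-likelihood test over 12372 genes. In iNKT17 over iNKT1 cells it was -3.31 ± 0.70, with an edgeR adjusted p of 0.0494. These calls covered 1 of 10 members in each comparison, beside 1.29% and 2% of all genes (0.752% and 1.01% lower). Both calls rested on the iNKT1 library with 15366 counts: without it the fold changes were -3.78 (edgeR adjusted p = 0.0788) and -2.30 (edgeR adjusted p = 0.424). The call in iNKT17 cells was also lost without the second iNKT17 library (-2.77, edgeR adjusted p = 0.123) and in a fit of the compared groups alone (-3.32, edgeR adjusted p = 0.123).

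Markers of other cells and of division differed between these groups. The 7 double-positive thymocyte markers, of which 2 were read in iNKT17, 4 in iNKT2 and 2 in iNKT1 cells, summed to 25.3 to 82.2 CPM in iNKT17 and 82.01 to 107.6 CPM in iNKT2 libraries, against 25.7 to 33.4 CPM in iNKT1 libraries. Rag1, which such cells use to rearrange their receptor genes, had 55 counts in the second iNKT2 library and 0 in the other 5. Without that library the log2 fold change of Bcl2 in iNKT2 over iNKT1 cells was -5.33. This omission cannot test the part of such cells. The iNKT2 library that was kept had the higher double-positive sum (107.6 CPM, against 82.01 CPM in the one left out). The 10 cell cycle genes summed to 245 to 744 CPM in iNKT17 and 789 to 818 CPM in iNKT2 libraries. In iNKT1 libraries they summed to 352 to 503 CPM. The part of all these markers in the result was not tested.

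Between iNKT17 and iNKT2 cells, Bcl2 differed by 1.47 ± 0.66 on the log2 scale (edgeR unadjusted p = 0.0512, adjusted p = 0.64), and 0 of 10 members were called, beside 0.711% of all genes. By edgeR 0 members had an unadjusted p under 0.05, beside 973 of 12372 genes, and DESeq2 called 0 members as well. Mcl1, the short-lived survival protein's gene, had 9724 and 11369 counts in iNKT17 libraries and 9386 and 8436 in iNKT2 libraries, against 9972 and 14171 in iNKT1 libraries. The ranges overlapped, and the log2 fold changes over iNKT1 cells were -0.27 ± 0.28 in iNKT2 and 0.01 ± 0.28 in iNKT17 cells. The standard errors of Mcl1 were below those of every other member in these fits.

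**Figure D1:**
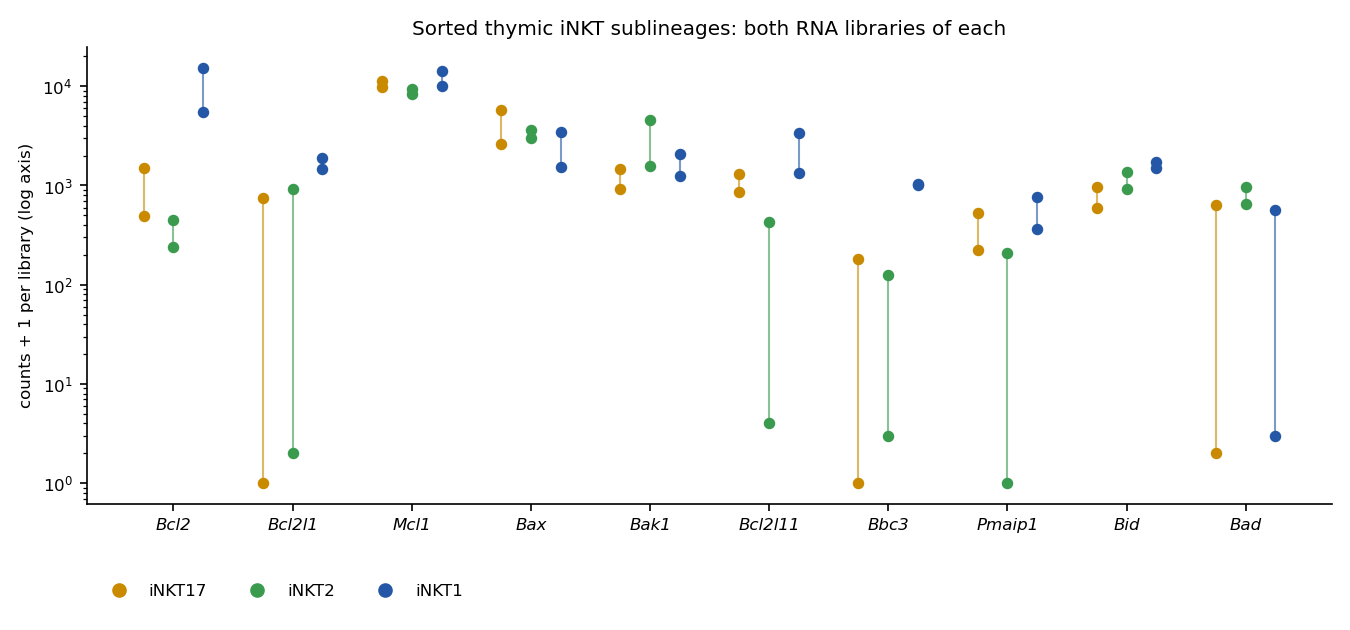
Deposited counts plus 1, on a log axis, of the 10 members in thymic iNKT17, iNKT2 and iNKT1 cells; each point is a library and a line joins the 2 libraries of a group. Bcl2 is higher in both iNKT1 libraries than in every other library, and long lines show genes counted in only 1 library of a group.

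Several members were read in only 1 of a group's libraries, which limits what these fits can show. Bcl2l1, the gene of BCL-xL, had 754 and 0 counts in iNKT17 and 1 and 914 in iNKT2 libraries, against 1879 and 1461 in iNKT1 libraries. Bbc3, the gene of PUMA, had 179 and 0 counts in iNKT17 and 2 and 125 in iNKT2 libraries, against 1040 and 1017 in iNKT1 libraries. Both genes were highest in the iNKT1 libraries, but iNKT17 and iNKT2 cells each had a library with 2 counts or fewer. Neither gene passed the test (log2 fold changes of -1.67 to -3.81, SE 2.84 to 3.60). How many of all genes separated in this way was not counted. Such gaps, with 3 counts or fewer in one library and at least 100 in the other, occurred in 8 of 30 pairs of member and group, spread over 5 members. Over all tested genes they made up 19.5% in iNKT17, 11.6% in iNKT2 and 14.4% in iNKT1 cells.

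The other death genes gave no call with all libraries. Bcl2l11, the gene of BIM, had 1316 and 852 counts in iNKT17 and 3 and 430 in iNKT2 libraries, against 3353 and 1339 in iNKT1 libraries. Its log2 fold change in iNKT2 over iNKT1 cells was -3.26 ± 1.72 (edgeR adjusted p = 0.769); without the iNKT2 library of 430 counts the gene was called (-9.44, edgeR adjusted p = 0.0128), a fitted value that rests on the library with 3 counts. In iNKT17 over iNKT2 cells the same omission also gave a call (8.47, edgeR adjusted p = 0.0336). Bax, a pore former, had 5771 and 2648 counts in iNKT17 and 2982 and 3590 in iNKT2 libraries, against 3438 and 1525 in iNKT1 libraries. Bak1, the other pore former, had 1472 and 922 in iNKT17 and 4598 and 1571 in iNKT2 libraries, against 1255 and 2093 in iNKT1 libraries. Both effectors were thus read in every sorted iNKT library, with no call between sublineages.

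The remaining BH3-only genes gave no call either. Bid, cut by caspase-8 to link death receptors to mitochondria, had 954 and 590 counts in iNKT17 and 930 and 1361 in iNKT2 libraries, against 1714 and 1490 in iNKT1 libraries. By CPM its iNKT2 and iNKT1 libraries overlapped. Bad, which growth-factor signals hold in check, had 629 and 1 counts in iNKT17 and 970 and 651 in iNKT2 libraries, against 569 and 2 in iNKT1 libraries. Pmaip1, which targets MCL-1, had 222 and 532 counts in iNKT17 and 0 and 209 in iNKT2 libraries, against 364 and 764 in iNKT1 libraries. The median log2 fold change over the 10 members was -0.99 in iNKT2 over iNKT1 cells, against 0.09 over all genes, and -0.62 in iNKT17 over iNKT1 cells, against -0.03.

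Of the 50 open-chromatin regions at the family's genes, 27 in iNKT2 and 30 in iNKT17 cells did not differ by the test from iNKT1 cells. Most of the called regions were lower than in iNKT1 cells. The promoters of the survival genes Bcl2 and Mcl1 and of the death genes Bcl2l11, Bbc3 and Bid are printed because a region over each start was called in both comparisons. Of the 2 start windows of Bcl2l11 and the 3 of Bbc3, 1 each is printed, the only one of that gene holding the FOXO core searched below. Each window runs from 250 bases before a transcription start to 50 after it, 5′ to 3′ on the gene's strand, from RefSeq on build GRCm38.p6; the letters are those of the reference genome and not of FVB/N cells. Capitals mark the words searched on either strand: the FOXO core TGTTTAC, the ETS core CCGGAAG, the GC box GGGCGG, the RUNX core TGTGGT and the T-box element AGGTGTGA.
Bcl2, chr1:106714241-106714540, minus strand: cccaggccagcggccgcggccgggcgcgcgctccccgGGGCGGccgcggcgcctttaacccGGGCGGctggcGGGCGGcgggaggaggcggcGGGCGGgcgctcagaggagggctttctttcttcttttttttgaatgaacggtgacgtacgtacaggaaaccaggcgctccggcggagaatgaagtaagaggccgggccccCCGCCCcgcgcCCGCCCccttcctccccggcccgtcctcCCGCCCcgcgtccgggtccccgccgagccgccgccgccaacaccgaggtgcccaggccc
Mcl1, chr3:95658471-95658770, plus strand: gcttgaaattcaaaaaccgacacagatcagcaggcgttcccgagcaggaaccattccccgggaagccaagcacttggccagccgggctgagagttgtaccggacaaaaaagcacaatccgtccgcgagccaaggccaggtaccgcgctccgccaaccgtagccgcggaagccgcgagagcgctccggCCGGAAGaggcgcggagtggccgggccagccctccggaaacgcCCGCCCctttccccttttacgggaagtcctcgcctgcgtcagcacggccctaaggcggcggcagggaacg
Bcl2l11, chr2:128125788-128126087, plus strand: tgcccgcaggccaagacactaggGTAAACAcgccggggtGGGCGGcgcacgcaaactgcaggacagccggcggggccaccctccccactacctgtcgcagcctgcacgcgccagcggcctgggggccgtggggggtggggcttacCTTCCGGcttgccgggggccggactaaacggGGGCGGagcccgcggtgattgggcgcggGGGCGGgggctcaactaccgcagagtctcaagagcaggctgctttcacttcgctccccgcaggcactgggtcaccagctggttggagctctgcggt
Bbc3, chr7:16310011-16310310, plus strand: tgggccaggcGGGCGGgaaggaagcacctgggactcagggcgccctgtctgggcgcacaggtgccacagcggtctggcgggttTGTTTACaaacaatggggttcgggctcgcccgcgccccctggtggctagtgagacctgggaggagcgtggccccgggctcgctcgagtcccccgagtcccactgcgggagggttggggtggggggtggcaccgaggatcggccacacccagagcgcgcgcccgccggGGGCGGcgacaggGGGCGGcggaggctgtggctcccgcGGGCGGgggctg
Bid, chr6:120916775-120917074, minus strand: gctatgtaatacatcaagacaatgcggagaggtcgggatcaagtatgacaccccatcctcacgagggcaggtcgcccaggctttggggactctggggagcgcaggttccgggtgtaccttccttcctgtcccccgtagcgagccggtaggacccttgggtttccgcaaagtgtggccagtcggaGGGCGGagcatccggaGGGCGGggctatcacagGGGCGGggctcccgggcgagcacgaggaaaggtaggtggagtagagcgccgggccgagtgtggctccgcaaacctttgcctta
The Bcl2 window held the GC box 7 times and none of the other words. The Mcl1 window held 1 ETS core, 63 bases before the start, and 1 GC box. In the Bcl2l11 window a FOXO core lay on the opposite strand 227 bases before the start, with 1 ETS core and 3 GC boxes nearer to it, and in the Bbc3 window a FOXO core lay 167 bases before the start with 4 GC boxes. The Bid window held 3 GC boxes and none of the other words. No FOXO core was found in the Bcl2l11 and Bbc3 windows that are not printed, among them the window in the Bbc3 start region with the smallest p. FOXO factors are known to activate Bcl2l11 and Bbc3 when cytokine signals fall. Of 32851 windows of this length, 3.65% held the FOXO core, 8.86% the ETS core, 35.7% the GC box, 16.8% the RUNX core and 1.28% the T-box element. These shares are for a single window, whereas Bcl2l11 and Bbc3 had several windows searched. The words were chosen with the data in view, no match in the printed windows overlaps another, and a match describes the letters only.

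Over the family, 22 of 50 regions were lower and 1 was higher in iNKT2 than in iNKT1 cells, beside 16.3% lower and 22.3% higher of all regions (38.6% called). In iNKT17 over iNKT1 cells, 18 were lower and 2 higher, beside 13.6% lower and 23.5% higher of all regions (37.1% called). In iNKT17 over iNKT2 cells 2 were lower and 1 higher, beside 3.24% and 5.11% (8.34% called). Promoters as a class leaned the same way: of 10389 regions over any gene's start, 28.6% were lower and 8.6% higher in iNKT2 cells, and 17.6% were lower and 7.99% higher in iNKT17 cells. Of the 14 start regions of the family, 7 were lower and 1 higher in iNKT2 cells, and 7 were lower and none higher in iNKT17 cells. Bcl2 held 16 of the 50 regions and gave 9 of the 22 lower calls in iNKT2 and 10 of the 18 in iNKT17 cells. No region of Bax, Bak1 or Bad was lower in either comparison, and none of Bcl2l1 or Pmaip1 was lower in iNKT17 cells. Bid had 2 of 4 regions lower in each comparison with iNKT1 cells, and the only region of Pmaip1 was lower in iNKT2 cells by edgeR (-0.83, adjusted p = 0.0155), a call lost without the first iNKT1 library (-0.86, adjusted p = 0.058), the second iNKT1 library (-0.79, adjusted p = 0.0877) or the first iNKT2 library (-0.66, adjusted p = 0.103). The number of calls in iNKT2 over iNKT1 cells depended on single libraries: 11 member regions were called in either direction without the second iNKT1 library and 14 without the first iNKT2 library, against 23 with all. Over all regions these settings gave 11572 and 14278 calls, against 21050 with all libraries.

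At the start of Bcl2 the region chr1:106713620-106714787 (coordinates as the deposited table gives them) had 35.8 and 55.0 CPM in iNKT17 and 31.4 and 37.9 CPM in iNKT2 libraries, against 77.8 and 100.0 CPM in iNKT1 libraries. The groups did not overlap. The log2 fold change was -1.36 ± 0.25 in iNKT2 over iNKT1 cells (edgeR adjusted p = 0.00301) and -0.97 ± 0.24 in iNKT17 over iNKT1 cells (edgeR adjusted p = 0.0127). The iNKT17 call was lost without the second iNKT1 library (-0.82, edgeR adjusted p = 0.0598) or the first iNKT17 library (-0.76, edgeR adjusted p = 0.0569). Inside the gene, 101475 bp downstream of the start, the region chr1:106612419-106613212 had 3.65 and 6.21 CPM in iNKT17 and 3.84 and 4.17 CPM in iNKT2 libraries, against 57.1 and 52.9 CPM in iNKT1 libraries. The groups lay far apart, with log2 fold changes of -3.78 ± 0.30 in iNKT2 (edgeR adjusted p = 0.000191) and -3.47 ± 0.29 in iNKT17 cells (edgeR adjusted p = 8.27e-05). Leaving out any library of the compared groups in turn kept both calls, between -3.89 and -3.22.

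Of 16 regions at Bcl2, 9 were lower in iNKT2 than in iNKT1 cells and 10 were lower in iNKT17 than in iNKT1 cells, with none higher. A region 107145 bp downstream, chr1:106606910-106607380, also separated the other sublineages: it had 0.355 and 0.0847 CPM in iNKT17 and 1.89 and 0.945 CPM in iNKT2 libraries, against 13.7 and 6.51 CPM in iNKT1 libraries. The difference between iNKT17 and iNKT2 cells (-2.87 ± 0.71, edgeR adjusted p = 0.0391) rests on few counts and was lost without the first iNKT2 library (-2.34, edgeR adjusted p = 0.179), the second iNKT2 library (-3.32, edgeR adjusted p = 0.0518) or the second iNKT17 library (-2.04, edgeR adjusted p = 0.197).

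Among the death genes, Bcl2l11 had the called regions with the largest fold changes. Over its start, which the window of Acoxl also touches, chr2:128125604-128126333 had 33.5 and 33.9 CPM in iNKT17 and 34.7 and 32.7 CPM in iNKT2 libraries, against 109.6 and 106 CPM in iNKT1 libraries. Both log2 fold changes were -1.68 ± 0.17 (edgeR adjusted p = 0.000282 in iNKT2 and 0.000148 in iNKT17 cells). A region 25461 bp downstream, chr2:128152280-128153792, was graded: 10.6 and 8.61 CPM in iNKT17 and 39.0 and 45.4 CPM in iNKT2 libraries, against 73.7 and 70.7 CPM in iNKT1 libraries. No libraries of different sublineages overlapped there. The region was lower in iNKT17 than in iNKT1 cells (-2.91 ± 0.20, edgeR adjusted p = 5.46e-05) and lower in iNKT17 than in iNKT2 cells (-2.13 ± 0.20, edgeR adjusted p = 0.00155). The smaller difference of iNKT2 from iNKT1 cells (-0.78 ± 0.19, edgeR adjusted p = 0.012) was lost without the first iNKT1 library (-0.74, edgeR adjusted p = 0.0626), the second iNKT1 library (-0.79, edgeR adjusted p = 0.0603) or the first iNKT2 library (-0.64, edgeR adjusted p = 0.0906).

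**Figure D2:**
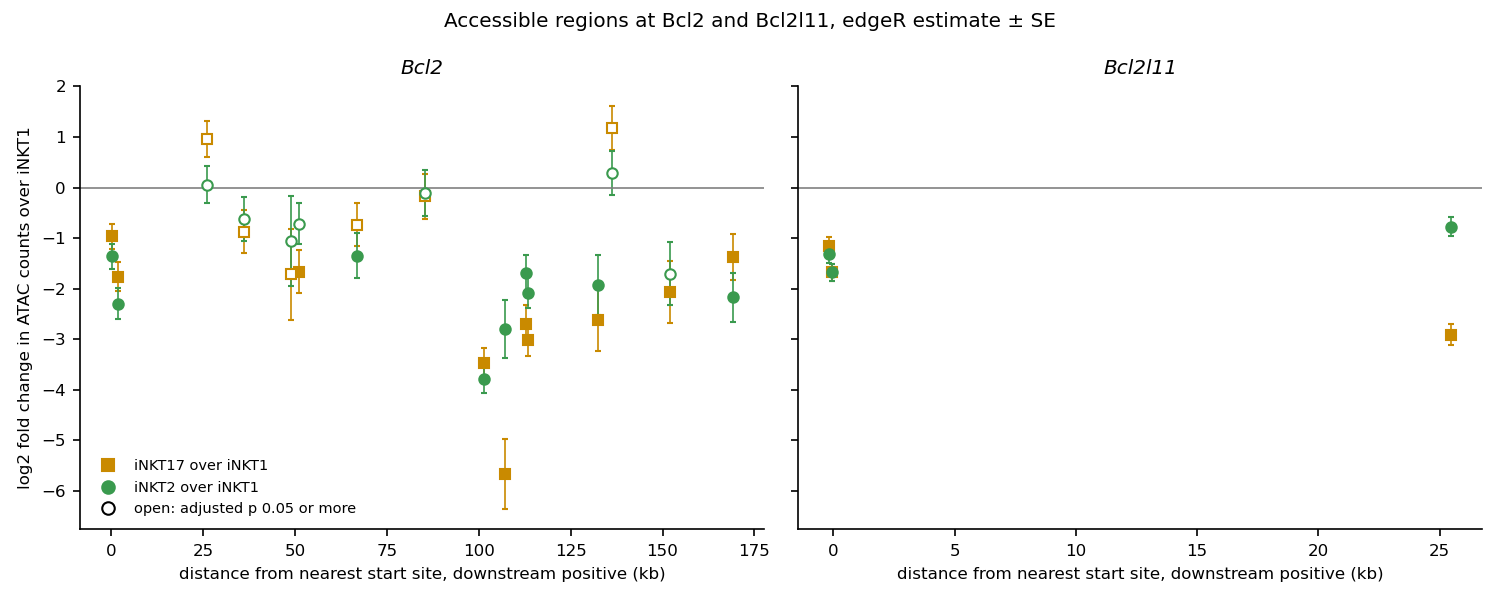
Log2 fold change of each open-chromatin region at Bcl2 and Bcl2l11 over iNKT1 cells (squares iNKT17, circles iNKT2) against its distance in kb from the nearest start site. Most called regions lie below 0, and at Bcl2 the region at 101475 bp is lower by over 3 log2 units in both sublineages.

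At the start of Mcl1, chr3:95658358-95659029 had 29.4 and 34.4 CPM in iNKT17 and 35.7 and 36.8 CPM in iNKT2 libraries, against 57.4 and 64.2 CPM in iNKT1 libraries. It was lower in iNKT17 cells (-0.93 ± 0.18, edgeR adjusted p = 0.00359) and in iNKT2 cells (-0.75 ± 0.18, edgeR adjusted p = 0.0112), while Mcl1 RNA was not called. The iNKT2 call was lost without the second iNKT1 library (-0.65, edgeR adjusted p = 0.0936) or the first iNKT2 library (-0.70, edgeR adjusted p = 0.0575). At a start of Bbc3, chr7:16309231-16309714 had 32.7 and 34.7 CPM in iNKT17 and 30.1 and 31.6 CPM in iNKT2 libraries, against 54.9 and 61.9 CPM in iNKT1 libraries. Both sublineages were lower than iNKT1 cells, with log2 fold changes of -0.79 ± 0.18 in iNKT17 (edgeR adjusted p = 0.007) and -0.92 ± 0.18 in iNKT2 cells (edgeR adjusted p = 0.00396); without the second iNKT1 library the iNKT17 call was lost (-0.74, edgeR adjusted p = 0.0538). Over the printed Bbc3 window, chr7:16309993-16310472 had 31.5 and 33.9 CPM in iNKT17 and 32.3 and 37.9 CPM in iNKT2 libraries, against 50.6 and 57.6 CPM in iNKT1 libraries. It was lower in iNKT17 (-0.73 ± 0.18, edgeR adjusted p = 0.0135) and iNKT2 cells (-0.63 ± 0.19, edgeR adjusted p = 0.0255), but the iNKT17 call was lost without the second iNKT1 library (-0.66, edgeR adjusted p = 0.0883) and the iNKT2 call without the first iNKT1 library (-0.72, edgeR adjusted p = 0.0594), the second (-0.52, edgeR adjusted p = 0.187) or the first iNKT2 library (-0.49, edgeR adjusted p = 0.154).

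The regions of Bcl2l1 went different ways in the comparisons. In iNKT2 over iNKT1 cells 3 of its 9 regions were lower and none higher, and in iNKT17 over iNKT1 cells 2 were higher and none lower. The region chr2:152766413-152766777 had 8.41 and 6.41 CPM in iNKT17 and 5.17 and 4.10 CPM in iNKT2 libraries, against 11.2 and 11.3 CPM in iNKT1 libraries. It was lower in iNKT2 cells (-1.27 ± 0.27, edgeR adjusted p = 0.00659), also with any 1 library of these groups left out (-1.43 to -1.12, edgeR adjusted p = 0.0218 to 0.0405). Also inside the gene, chr2:152815986-152816867 had 10.2 and 9.26 CPM in iNKT17 and 3.12 and 2.21 CPM in iNKT2 libraries, against 1.80 and 0.660 CPM in iNKT1 libraries. It was higher in iNKT17 than in iNKT1 cells (2.94 ± 0.46, edgeR adjusted p = 0.00112), and its excess over iNKT2 cells (1.85 ± 0.44, edgeR adjusted p = 0.0351) was lost whichever library of these 2 groups was left out (1.60 to 2.08, edgeR adjusted p = 0.0662 to 0.17). At the start of Bak1, which Ggnbp1 overlaps, lay the single member region called higher in iNKT2 than in iNKT1 cells: chr17:27027290-27028778 had 59.1 and 60.6 CPM in iNKT2 libraries, against 39.4 and 33.7 CPM in iNKT1 libraries (0.71 ± 0.18, edgeR adjusted p = 0.0136; 0.62 and edgeR adjusted p = 0.128 without the second iNKT1 library). The 2 regions of Bax and the 6 of Bad gave no call.

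Single cells of the 2 samples, called A and B here, gave levels in iNKT cells not split into sublineages. After keeping barcodes with at least 1000 UMIs (unique transcript molecules) and 500 genes, 142 cells of A and 145 of B remained, with 0 shared cell barcodes and medians of 5206 and 5815 UMIs per cell. Summed over the cells, Bcl2 had 76 UMIs in A (91.5 per 1000000, exact Poisson 95% interval 72.1 to 114.5) and 57 in B (63.7 per 1000000, 48.2 to 82.5). Bax had 116 and 118 UMIs and Mcl1 43 and 47, differences within counting error. Bbc3 had 28 UMIs in A (33.7 per 1000000, 22.4 to 48.7) and 13 in B (14.5 per 1000000, 7.73 to 24.8). The intervals overlapped at their ends, but such an overlap cannot show that the levels were equal. The rest were sparse: Bak1 had 42 and 30 UMIs, Bad 25 and 28, Bid 13 and 5, Bcl2l1 8 and 10, Bcl2l11 4 and 6. Pmaip1 had none in either sample, which allows up to 3.61 UMIs per 1000000 in A and 3.35 in B by a limit of 3 UMIs, or 4.44 and 4.12 by the upper end of the exact Poisson 95% interval. The intervals and limits cover counting error only. No doublets were called or removed, and no test was made, since both samples are of 1 group.

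In donor T cells many members of the family, like many of all genes, differed by day 7 after transplant. In CD4 cells the share of members called was near that of all genes. In CD8 cells without iNKT treatment, Bcl2 and Mcl1 were lower and Bcl2l1, Bax and all 5 BH3-only genes higher than on day 0; in CD4 cells Bcl2l1, Bcl2l11, Bbc3 and Pmaip1 were higher and none lower. These were 7 of 10 members higher and 2 lower in CD8 cells, beside 30.9% of all genes higher and 29.8% lower (60.7% called). In CD4 cells 4 of 10 were higher and 0 lower, beside 17.4% higher and 18.2% lower (35.6% called). The median log2 fold change over the 10 members was 0.81 in CD8 cells, against -0.05 over all genes, and 0.90 in CD4 cells, against -0.08.

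**Figure D3:**
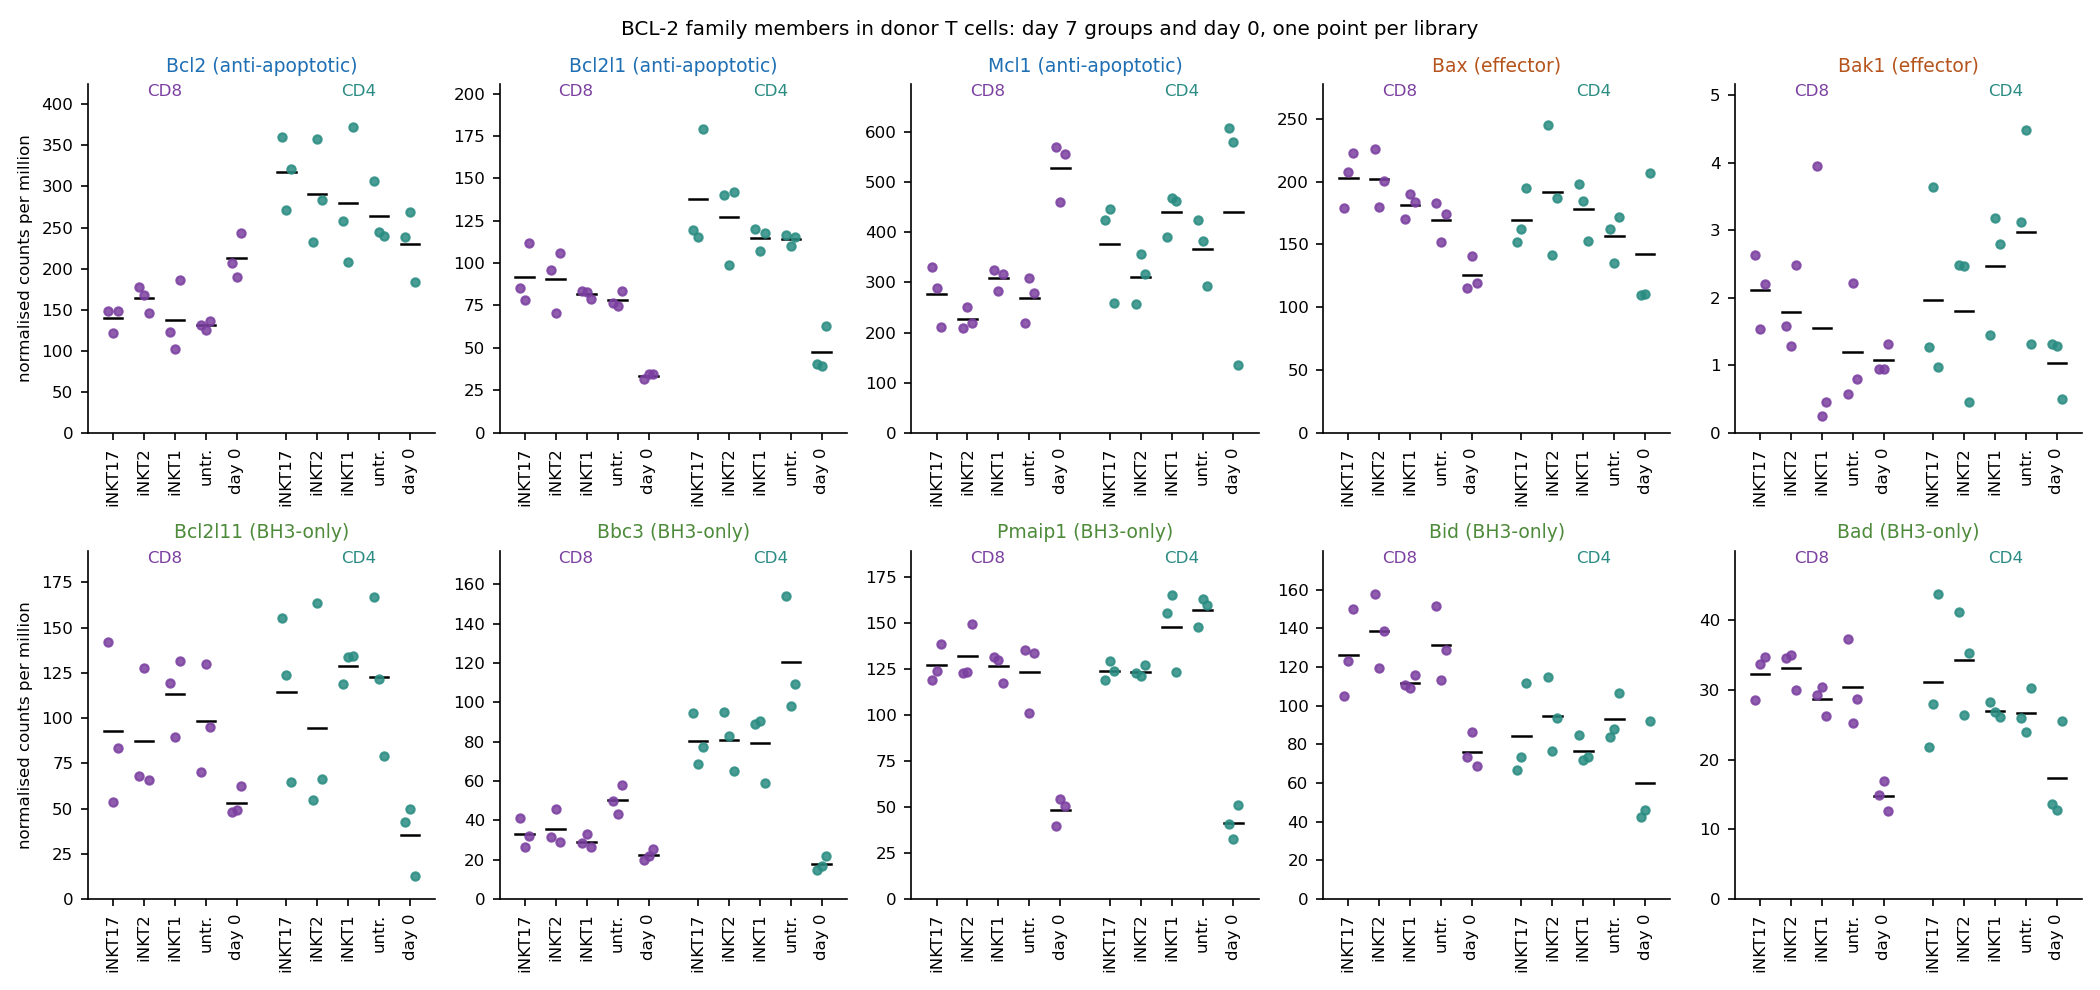
Normalised CPM of the 10 members in donor CD8 (left) and CD4 (right) T cells; each point is a library, the bar is the group mean, and groups are day 7 with iNKT17, iNKT2 or iNKT1 cells, day 7 untreated, and day 0. Bcl2l1, Bbc3 and Pmaip1 lie above day 0 in all day 7 libraries of both cell types, and Bcl2 and Mcl1 lie below day 0 in all CD8 day 7 libraries.

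Among the survival genes, Bcl2 had 132, 125 and 136 CPM in untreated day 7 CD8 libraries, against 207, 189.6 and 243 CPM on day 0. The groups did not overlap, and Bcl2 was lower by -0.73 ± 0.18 on the log2 scale (edgeR adjusted p = 0.00233). In CD4 cells it had 306, 245 and 239.8 CPM on day 7, against 239, 269 and 183 CPM on day 0, overlapping ranges with a log2 fold change of 0.15 ± 0.23 (edgeR adjusted p = 0.653). All 12 day 7 CD8 libraries, treated or not, lay between 102 and 186 CPM with a median of 141, below every day 0 library.

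Bcl2l1 took the opposite course. It had 76.2, 74.8 and 83.4 CPM in untreated day 7 CD8 libraries, against 31.7, 34.8 and 34.5 CPM on day 0. In CD4 libraries it had 116, 110.3 and 115 CPM on day 7, against 40.3, 39.4 and 63.2 CPM on day 0. Day 7 libraries were above day 0 in both cell types, with closely similar log2 fold changes of 1.19 ± 0.15 in CD8 (edgeR adjusted p = 5.9e-06) and 1.21 ± 0.21 in CD4 cells (edgeR adjusted p = 0.000533). Mcl1 had 218, 309 and 279.8 CPM in untreated day 7 CD8 libraries, against 569.8, 460.3 and 556 CPM on day 0 (-0.996 ± 0.16, edgeR adjusted p = 7.9e-05). In CD4 cells Mcl1 had 425, 383 and 292 CPM on day 7, against 609, 579.9 and 134 CPM on day 0. The third day 0 CD4 library was the lowest of all and the others were the highest, so that the fold change of -0.32 ± 0.40 was not called (edgeR adjusted p = 0.585); without that library it was -0.74 (edgeR adjusted p = 0.0171), and without the first day 0 library it was 0.02 (edgeR adjusted p = 0.977).

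The library in question stood apart from its group: it held 18119 detected genes, against 19890 and 19504 in the others, and Pearson's r of log CPM across genes was 0.953 to 0.954 with them, against 0.986 between them. Its erythroid and platelet markers summed to 9001 CPM, against 5712 and 2995 CPM. Cd4 stood at 401 CPM, against 860 and 893 CPM, and Cd3e at 510 CPM, against 804 and 798 CPM. Its T cell markers together summed to 5331 CPM, against 4347 and 4291 CPM. The part of these markers was not tested. Without this library 7 members were called in CD4 cells instead of 4 (6164 instead of 5349 of all genes), Mcl1 as above, Bid (1.03, edgeR adjusted p = 0.00221) and Bad (0.97, edgeR adjusted p = 0.00861) being added. Detected genes also varied on day 7. In the 4 CD4 day 7 libraries with the fewest genes (17052 to 17737), Mcl1 was at 256 to 317 CPM and Bcl2l11 at 54.5 to 78.8 CPM. In the other 8 (18125 to 18902 genes), Mcl1 was at 357 to 469.6 CPM and Bcl2l11 at 119 to 167 CPM. In CD8 day 7 cells the same split overlapped: Mcl1 was at 209.4 to 279.8 CPM and Bcl2l11 at 65.9 to 95.2 CPM in the 4 libraries with the fewest genes, and at 218 to 329.9 CPM and 53.7 to 142 CPM in the other 8. The part of this measure in the changes from day 0 was not tested.

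**Figure D4:**
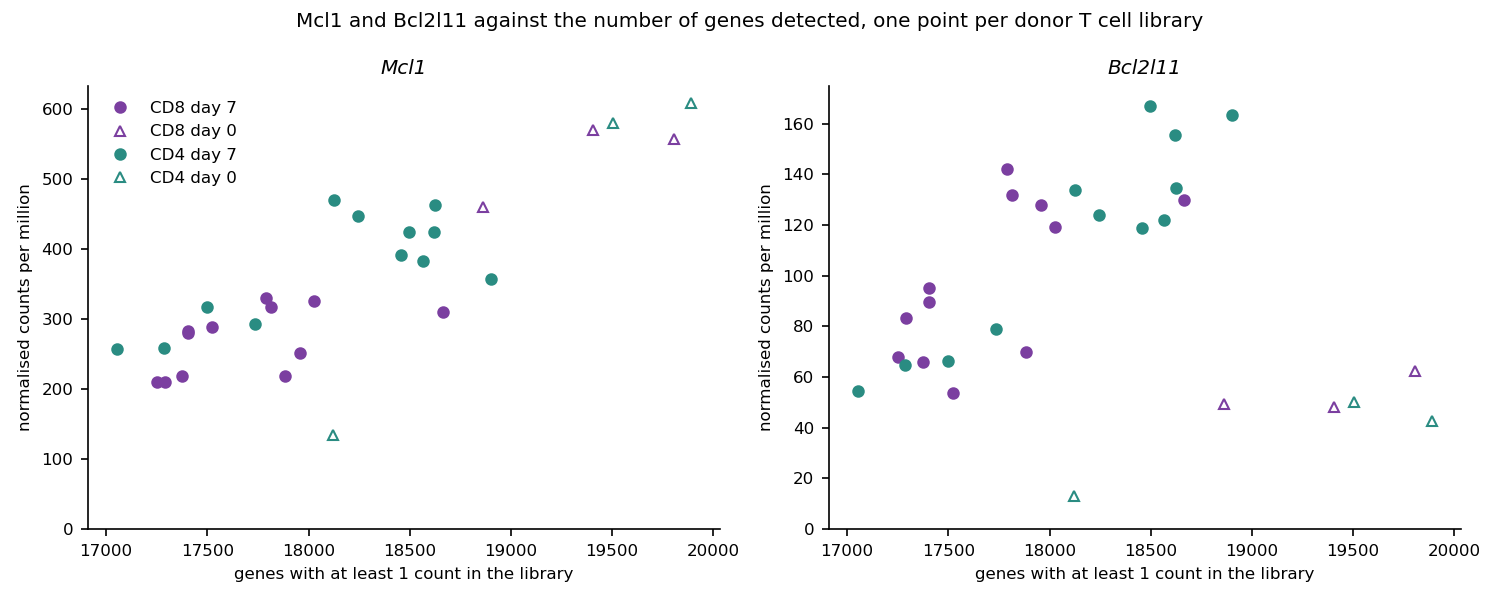
Normalised CPM of members in donor T cell libraries against the number of genes with at least 1 count; circles are day 7 and triangles day 0 libraries. In CD4 day 7 cells, Mcl1 and Bcl2l11 are lower in the 4 libraries with 17052 to 17737 genes than in the other 8.

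Of the pore formers, Bax had 183, 152 and 174 CPM in untreated day 7 CD8 libraries, against 116, 141 and 119.5 CPM on day 0. The groups did not overlap and the log2 fold change was small (0.42 ± 0.11, edgeR adjusted p = 0.00529). In CD4 cells Bax had 162, 135 and 172 CPM on day 7, against 109.8, 110.1 and 207 CPM on day 0 (0.09 ± 0.24, edgeR adjusted p = 0.804). Bak1 was barely read in donor T cells, with 7 to 150 counts or 0.243 to 4.48 CPM over all 30 libraries, although each sorted iNKT library held 922 to 4598 counts from another library kit. It was not called in either cell type (0.14 ± 0.77 in CD8, edgeR adjusted p = 0.886; 1.47 ± 0.68 in CD4, edgeR adjusted p = 0.111).

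Bbc3, the gene of PUMA, had the largest fold change of the 10 members in CD4 cells. It had 154, 97.9 and 109 CPM in untreated day 7 CD4 libraries, against 14.9, 17.0 and 22.03 CPM on day 0 (2.70 ± 0.25, edgeR adjusted p = 1.63e-06). In CD8 libraries it had 50.0, 43.0 and 58.1 CPM on day 7, against 19.7, 21.7 and 25.6 CPM on day 0 (1.15 ± 0.20, edgeR adjusted p = 0.000121). Day 7 was higher in every library of both cell types. Pmaip1, the gene of NOXA, had 135, 101 and 134 CPM in untreated day 7 CD8 libraries, against 39.8, 54.1 and 50.5 CPM on day 0 (1.34 ± 0.13, edgeR adjusted p = 6.45e-07). In CD4 libraries it had 147, 163 and 159 CPM on day 7, against 40.6, 32.4 and 50.8 CPM on day 0 (1.88 ± 0.16, edgeR adjusted p = 8.23e-07).

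Bcl2l11, the gene of BIM, had 167, 122 and 78.8 CPM in untreated day 7 CD4 libraries, against 42.7, 50.0 and 12.9 CPM on day 0. Day 7 was higher without overlap (1.75 ± 0.51, edgeR adjusted p = 0.016), a call lost without the first untreated library (1.49, edgeR adjusted p = 0.0601). In CD8 cells it had 70.0, 130.0 and 95.2 CPM on day 7, against 48.3, 49.3 and 62.5 CPM on day 0 (0.86 ± 0.34, edgeR adjusted p = 0.0402). The CD8 call was the weakest of the family: it was lost with no low-count filter (0.89, edgeR adjusted p = 0.108), without day 0 library 1 (0.80, edgeR adjusted p = 0.115) or 2 (0.81, edgeR adjusted p = 0.105), and without untreated library 2 (0.62, edgeR adjusted p = 0.152) or 3 (0.89, edgeR adjusted p = 0.0676).

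Bid had 152, 113 and 129 CPM in untreated day 7 CD8 libraries, against 73.4, 86.2 and 68.9 CPM on day 0 (0.76 ± 0.14, edgeR adjusted p = 0.000279). Bad had 37.3, 25.2 and 28.7 CPM in the same day 7 libraries, against 14.9, 16.9 and 12.6 CPM on day 0 (1.02 ± 0.15, edgeR adjusted p = 3.46e-05). Both were higher in all 3 untreated CD8 libraries. In CD4 cells Bid had 83.8, 88.1 and 107 CPM on day 7, against 42.3, 45.9 and 91.9 CPM on day 0, and Bad had 25.9, 23.97 and 30.3 CPM, against 13.6, 12.8 and 25.5 CPM. The third day 0 library reached the day 7 range for both, and neither was called with all libraries (edgeR adjusted p = 0.116 for Bid and 0.13 for Bad).

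**Figure D5:**
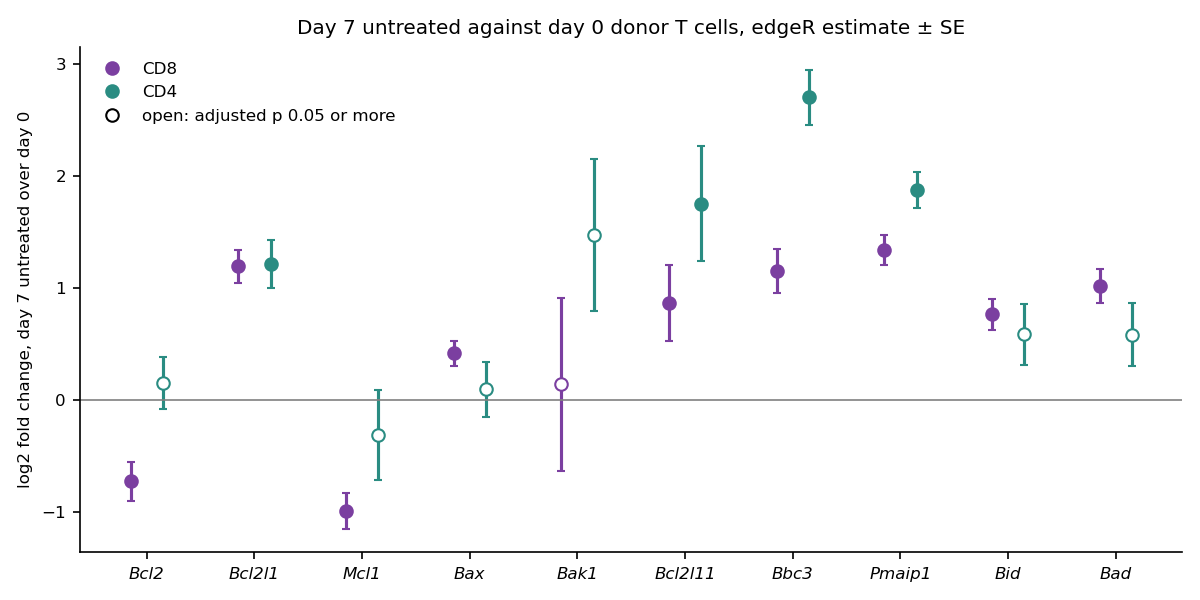
Log2 fold change (± SE) of the 10 members in untreated day 7 over day 0 donor T cells, CD8 and CD4 shown separately; open symbols have an adjusted p of 0.05 or more. Bbc3 is at 2.70 in CD4 and 1.15 in CD8 cells, and Bcl2 and Mcl1 lie below 0 with filled symbols in CD8 cells.

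With all 12 day 7 libraries set against the 3 of day 0, 6 members lay above day 0 without overlap in CD8 cells (Bcl2l1, Bax, Bbc3, Pmaip1, Bid and Bad), beside 27.1% of all genes, and 2 lay below (Bcl2 and Mcl1), beside 25.9%. In CD4 cells 4 lay above (Bcl2l1, Bcl2l11, Bbc3 and Pmaip1), beside 15.2% of all genes, and 0 below, beside 14%. Other cells and cell division moved with day. The 9 myeloid markers summed to 166 to 426 CPM in CD8 and 140 to 652 CPM in CD4 day 7 libraries, against 494 to 1677 CPM and 774 to 849.5 CPM on day 0. Erythroid and platelet markers (8 genes) summed to 1.96 to 14.7 CPM in day 7 CD8 and 3.27 to 23.9 CPM in day 7 CD4 libraries, against 576 to 763 CPM and 2995 to 9001 CPM on day 0. The 8 B and plasma cell markers summed to 20.7 to 40.2 CPM in CD8 and 20.6 to 82.2 CPM in CD4 day 7 libraries, against 231 to 812 CPM and 495 to 625 CPM on day 0. The 10 cell cycle genes summed to 2327 to 3632 CPM in CD8 and 812 to 1332 CPM in CD4 day 7 libraries, against 294 to 343 CPM and 216 to 335 CPM on day 0. Their part in the changes of the family was not tested.

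On day 0 the donor CD8 and CD4 cells showed no called difference: 0 of 10 members by edgeR, beside 8.59% of all genes, with 1 member at an unadjusted p under 0.05 and 0 by DESeq2. That member was Bcl2l1 (-0.50 ± 0.19, edgeR adjusted p = 0.11), and 3248 of 15601 genes had an unadjusted p under 0.05. Without the third CD4 day 0 library Bid was called higher in CD8 cells (0.79, edgeR adjusted p = 0.0147). By day 7 in untreated hosts 2 members were lower in CD8 than in CD4 cells, beside 14.5% of all genes called and 6.67% lower. Bcl2 had 132, 125 and 136 CPM in CD8 libraries, against 306, 245 and 239.8 CPM in CD4 libraries (-1.01 ± 0.21, edgeR adjusted p = 0.00148). Bbc3 had 50.0, 43.0 and 58.1 CPM in CD8 libraries, against 154, 97.9 and 109 CPM in CD4 libraries (-1.26 ± 0.22, edgeR adjusted p = 0.000267). Both a survival gene and a death gene were therefore lower in CD8 cells, without overlap. Bcl2l1 fell just outside the threshold (-0.55 ± 0.19, edgeR adjusted p = 0.0523; DESeq2 -0.53, adjusted p = 0.0383).

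The change from day 0 itself was tested between the cell types in a fit of all 30 libraries. It differed for Bbc3, whose log2 change in CD8 cells minus that in CD4 cells was -1.57 ± 0.31 (edgeR adjusted p = 0.00207). This was 1 of 10 members, beside 8.78% of all genes, and held whichever of the 12 libraries was left out (-1.74 to -1.35, edgeR adjusted p up to 0.0101). For Bcl2 the difference of changes was -0.90 ± 0.30 (edgeR adjusted p = 0.059), which DESeq2 called (-0.89, adjusted p = 0.036), as did edgeR without the second CD4 day 0 library (-1.03, edgeR adjusted p = 0.0375). For Pmaip1 it was -0.57 ± 0.21 (edgeR adjusted p = 0.09), called without the first CD8 day 0 library (-0.69, edgeR adjusted p = 0.0498) or the third CD4 day 0 library (-0.74, edgeR adjusted p = 0.0216). For Bcl2l1 the changes were close (-0.04 ± 0.27, edgeR adjusted p = 0.949).

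Giving iNKT cells left the family without a call in any of the 6 comparisons with untreated hosts (edgeR, 0 of 10 members each), beside 0.206%, 0.11% and 0.158% of all genes in CD8 cells given iNKT17, iNKT2 and iNKT1 cells and 0% in CD4 cells. DESeq2 called 1 member, Bbc3 in CD8 cells given iNKT1 cells (-0.78, adjusted p = 0.0109), and 0 in the other 5. At an unadjusted edgeR p under 0.05 there were 2 members with iNKT17 (Bax and Bbc3), 2 with iNKT2 (Bax and Bbc3) and 1 with iNKT1 (Bbc3) in CD8 cells, and 1 (Bbc3), 2 (Bbc3 and Pmaip1) and 1 (Bbc3) in CD4 cells. Over all genes, 1972, 1872 and 1799 of 14586 had such a p in CD8 cells, in the same order. In CD4 cells 1170, 1204 and 1008 of 15031 did. The comparisons share the untreated libraries. Apart from Bbc3 and the barely read Bak1, log2 fold changes over untreated cells lay between -0.37 and 0.36 for the 8 other members.

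Bbc3 recurred in all 6. In CD8 cells it had 41.2, 26.6 and 32.2 CPM with iNKT17, 31.7, 45.8 and 28.9 CPM with iNKT2 and 28.3, 33.1 and 26.4 CPM with iNKT1 cells, against 50.0, 43.0 and 58.1 CPM untreated. Of the 9 treated libraries, 1 reached the untreated range. The log2 fold changes were -0.60 ± 0.19 with iNKT17 (edgeR adjusted p = 0.173), -0.50 ± 0.19 with iNKT2 (edgeR adjusted p = 0.284) and -0.78 ± 0.19 with iNKT1 cells (edgeR adjusted p = 0.109). In CD4 cells Bbc3 had 94.6, 68.7 and 77.2 CPM with iNKT17, 95.1, 82.9 and 64.9 CPM with iNKT2 and 88.9, 90.6 and 59.0 CPM with iNKT1 cells, against 154, 97.9 and 109 CPM untreated. All 9 treated CD4 libraries lay below the 3 untreated ones, as did 2.74% of all genes, and the log2 fold changes were -0.57, -0.57 and -0.58 (edgeR adjusted p = 0.531, 0.536 and 0.681 for iNKT17, iNKT2 and iNKT1). The 9 myeloid markers summed to 140 to 369 CPM with iNKT17, 242 to 454 CPM with iNKT2 and 273 to 652 CPM with iNKT1 cells, against 191 to 204 CPM in untreated CD4 libraries. In CD8 libraries the sums were 166 to 258 CPM with iNKT17, 321 to 426 CPM with iNKT2 and 232 to 281 CPM with iNKT1 cells, against 205 to 334 CPM untreated. The part of these markers in the values of Bbc3 was not tested.

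Against untreated hosts the mean of the 3 treatments, a comparison added after the single ones had been seen, gave -0.63 ± 0.15 for Bbc3 in CD8 cells (edgeR unadjusted p = 0.000929, adjusted p = 0.0613) and -0.58 ± 0.18 in CD4 cells (edgeR unadjusted p = 0.00713, adjusted p = 0.254). Thus 0 of 10 members were called, beside 1.23% of all genes in CD8 and 0.0599% in CD4 cells, with 2 members (Bax and Bbc3) and 1 member (Bbc3) at an unadjusted p under 0.05. Over all genes, 2202 of 14586 in CD8 and 1467 of 15031 in CD4 cells had such a p. DESeq2 called Bbc3 in CD8 cells (-0.63, adjusted p = 0.00761) and 0 members in CD4 cells. So did edgeR in CD8 cells without the second iNKT2 library (-0.71, adjusted p = 0.0254) or the first iNKT17 library (-0.69, adjusted p = 0.0435). Without the 3 CD4 and 5 CD8 day 7 libraries of 17052 to 17499 detected genes, a setting added after seeing the data, the value in CD8 cells was -0.42 (edgeR adjusted p = 0.455), and 0 members were called in every comparison of treatments. Between treatments 0 of 10 members were called by edgeR in all 6 pairs, beside 0% of all genes, and 0 by DESeq2. Unadjusted edgeR p-values under 0.05 fell on 2 members, Mcl1 (-0.45) and Bid (0.31), in CD8 cells given iNKT2 over those given iNKT1, and on 0 members in the other 5. Such p-values fell on 1731 of 14586 genes in that pair and on 277 to 1355 genes in the other 5.

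Other genes of the death and survival pathways were read for comparison; their counts stand beside 30.9% higher and 29.8% lower of all genes in CD8 cells and 17.4% higher and 18.2% lower in CD4 cells. Of 7 tested further BCL-2 relatives, 3 were higher and 1 lower by day 7 in CD8 cells and 2 higher and 1 lower in CD4 cells. Bcl2a1b and Bcl2a1d, copies of the survival gene A1, had log2 fold changes of 2.25 and 2.90 in CD8 and 1.27 and 1.32 in CD4 cells; the copies are nearly identical, so the split of reads between them is uncertain. Bnip3, a mitochondrial relative, was lower (-1.71 in CD8 and -1.89 in CD4 cells).

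Of 17 apoptosome and caspase genes, 9 were higher and 4 lower in CD8 cells, and 4 higher and 2 lower in CD4 cells. Of 12 death receptor pathway genes, 4 were higher and 4 lower in CD8 cells, and 3 higher and 1 lower in CD4 cells. Fasl, the ligand of the death receptor Fas, averaged 168 CPM on day 7, against 3.18 CPM on day 0, in CD8 cells (5.69 ± 0.32, edgeR adjusted p = 1.96e-09) and 86.3 CPM, against 35.2 CPM, in CD4 cells (1.25 ± 0.38, edgeR adjusted p = 0.0206), and its change differed between the cell types (4.42 ± 0.51, edgeR adjusted p = 3.81e-06).

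Of 8 p53 and FOXO pathway genes, 1 was higher and 6 were lower by day 7 in CD8 cells, and 1 was higher and 4 were lower in CD4 cells. Foxo1, a transcription factor known to activate Bcl2l11 and Bbc3, averaged 112 CPM on day 7, against 389 CPM on day 0, in CD8 cells (-1.82 ± 0.10, edgeR adjusted p = 7.1e-10) and was lower in CD4 cells as well (-1.49 ± 0.17, edgeR adjusted p = 1.41e-05). Of 13 genes of cytokine survival signals, 4 were higher and 1 lower in CD8 cells, and 8 higher and 0 lower in CD4 cells. The receptor chains Il2ra and Il2rb had log2 fold changes of 5.23 and 2.31 in CD8 and 1.25 and 3.54 in CD4 cells.

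In sorted iNKT cells few genes of these lists were called. Il2rb, the receptor chain for IL-2 and IL-15, averaged 294 CPM in iNKT17 and 147 CPM in iNKT2 cells, against 1523 CPM in iNKT1 cells (-2.38 ± 0.23, edgeR adjusted p = 0.000567, and -3.37 ± 0.24, edgeR adjusted p = 0.000148). Casp8, the initiator caspase of death receptors, was lower in iNKT17 than in iNKT1 cells (-2.19 ± 0.41, edgeR adjusted p = 0.028). Jak3, a kinase gene of the cytokine survival signals, was higher in iNKT17 than in iNKT1 cells (1.35 ± 0.20, edgeR adjusted p = 0.00693). It was also higher in iNKT17 than in iNKT2 cells (1.13 ± 0.20, edgeR adjusted p = 0.0398). Il7r, the receptor for IL-7, was higher in iNKT17 than in iNKT2 cells (1.34 ± 0.20, edgeR adjusted p = 0.0158). No other gene of these lists was called between iNKT sublineages.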

How the data were processed

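Gene and region counts (iNKT RNA, ATAC-seq, donor T cells) and single-cell UMI counts were used as the authors deposited them: whole-number counts, not normalised. Per the labels' protocols, iNKT RNA libraries used the TruSeq stranded mRNA kit and donor T cell libraries SMARTer v4 cDNA with Nextera XT. Per the submitters' processing notes, STAR 2.5.4, kallisto, Bowtie2, MACS2, bedtools 2.27.1, Cell Ranger 2.1, Seurat 3, DESeq2 1.22.2 and builds mm10 and GRCm38 were listed, with no roles; strand use in counting is not given in the sources used here.

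From these counts, edgeR 4.0.16 (R 4.3.3) was fitted over all genes or regions: low-count filter by group, TMM scaling, robust quasi-likelihood F-test, Benjamini-Hochberg adjustment, calls at an adjusted p under 0.05. The 6 iNKT RNA, 6 ATAC, 15 CD4 and 15 CD8 libraries were fitted separately, and all 30 donor libraries together for CD8 against CD4 values and donor CPM. DESeq2 1.42.0 was an alternative. The steps were checked on simulated counts. Standard errors come from the F statistic. Gene IDs were matched to symbols for 99.9% (iNKT) and 98.5% (donor T cells) of IDs; 0 table columns were left unmatched, and 3 CD8 day 0 columns with 1 shared name were numbered in column order. Regions were assigned by overlap with RefSeq GRCm38.p6 gene bounds extended by 2000 bp, since the deposited table was used here without gene assignments. Promoter words were searched in Python 3.11.15.

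The members, pathway lists and tests were chosen with earlier results of these data known. Named genes were all members, up to 3 called genes with the smallest p per list, and, per member, the region nearest its start and the called region with the smallest p; Jak3, Il7r and the further Bcl2, Bcl2l11 and Bcl2l1 regions follow this rule over the comparisons; some genes that the rule names are not reported here. The experiments named in sample titles could not be tied to donor columns, so no term for them was fitted, and libraries within a group may differ by experiment. Titles list CD8 and CD4 libraries in matching pairs, which the fits treat as independent. Alternatives were DESeq2, RLE size factors, no low-count filter, fits of the compared groups, a replicate block for iNKT cells, leaving out each library and, added after seeing the data, leaving out libraries of few detected genes.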

Additional observations from a re-analysis of the deposited data

Results flagged for a closer look

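The change of Bbc3 between day 0 and untreated day 7 differed between the donor cell types by the test of the difference itself (edgeR, CD8 minus CD4). The log2 change was 1.15 in CD8 and 2.70 in CD4 cells, and the difference in the fit of all 30 libraries was -1.57 ± 0.31 (edgeR adjusted p = 0.00207). The sums of the cell cycle genes on day 7 and of the erythroid and platelet markers on day 0 also lay in separate ranges in CD8 and CD4 libraries, and their part in this difference was not tested.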

How the results depend on the processing

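Of 272 alternative counts of called members or regions, 250 stayed within 1.5 times the reported count and 22 did not; of 630 alternative values for single members and regions, 563 kept their call, 24 gained one and 43 lost one. Among these 630 values 1 changed sign, uncalled in both settings: Mcl1 in CD4 day 7 over day 0 (-0.32) was 0.02 without the first day 0 library. Uncalled values of members outside this set also changed sign between settings. Examples were Bad in iNKT17 over iNKT1 RNA (-7.73 to 7.29) and Bcl2l1 in iNKT17 over iNKT2 RNA (-11.9 to 8.31). Bax in CD4 day 7 over day 0 ran from -0.038 to 0.466. Leaving out 1 library at a time gave 0 to 2 members in iNKT2 over iNKT1 RNA (reported 1), 0 to 1 in iNKT17 over iNKT1 RNA (1) and 0 to 1 in iNKT17 over iNKT2 RNA (0). It gave 11 to 19 regions in iNKT2 over iNKT1 ATAC (23) and 1 to 3 in iNKT17 over iNKT2 ATAC (3). In donor cells it gave 3 to 7 members in CD4 day 7 over day 0 (4), 0 to 1 in CD8 given any iNKT cells (0), 0 to 1 in CD8 over CD4 on day 0 (0) and 1 to 2 for the difference of changes (1). In iNKT17 over iNKT1 RNA a fit of the compared groups gave 0 members. DESeq2 gave 7 regions in iNKT17 over iNKT2 ATAC, 1 member in CD8 given iNKT1 cells, 1 in CD8 given any iNKT cells and 2 for the difference of changes. Over all genes DESeq2 called 1177 in iNKT2 over iNKT1, 1820 in iNKT17 over iNKT1 and 1472 in iNKT17 over iNKT2 RNA, against 159, 247 and 88 by edgeR. In CD8 cells given iNKT17, iNKT2 and iNKT1 cells it called 483, 353 and 385 genes, against 30, 16 and 23 by edgeR, and in CD4 cells 213, 116 and 123, against 0. Without the 3 CD4 and 5 CD8 day 7 libraries of 17052 to 17499 detected genes, and so with fewer libraries, edgeR called 0 genes in these CD8 comparisons, 5 instead of 179 in CD8 and 0 instead of 9 in CD4 cells given any iNKT cells. The causes were not tested. Start regions of Bcl2, Mcl1, Bak1, Bbc3 and Bid lost a call in at least 1 setting that left out a library.

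With the replicate number as a block, iNKT17 over iNKT2 ATAC gave 10 member regions instead of 3, and 10102 instead of 4549 of all regions; no other count of members or regions moved by over 1.5 times. Same-numbered libraries deviated together in ATAC (correlations of 0.602, 0.438 and 0.515) and not in RNA (-0.125, 0.0606 and -0.0395). Each group had 2 libraries, and no label says what same-numbered libraries share. The ATAC calls given under Results come from fits without this block. The crossed pairing in iNKT2 over iNKT1 RNA, added after seeing the data, gave 1 member. For donor T cells no paired analysis was run, because the columns are not tied to the titles that name an experiment. The planned experiment term was not run either. Day 7 columns carry numbers in both cell types, and a block on these numbers was not fitted. By these numbers the 4 day 7 libraries with the fewest genes were the same in CD8 and CD4 cells (iNKT17 3, iNKT2 1, iNKT2 3 and untreated 3). In CD8 cells untreated 3 tied with iNKT1 2 at 17402 genes. Few counts limit Bak1 in donor T cells, and gaps between libraries of a group limit the members concerned in iNKT RNA. For these genes a missed call is no sign of equal levels. Total counts were similar in the donor T cell and iNKT RNA libraries, and the reason for the low counts was not tested.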

Other observations

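A region near Bad, chr19:6952073-6952425, had 33.8 and 67.6 CPM in iNKT17 and 22.4 and 921.8 CPM in iNKT2 ATAC libraries, against 27.7 and 188.5 CPM in iNKT1 libraries. The second library of each sublineage was the higher, most of all in iNKT2 cells.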
